A study of Mus musculus with 6 samples.

Results

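Smooth muscle cells (SMCs) contract through filaments of actin and myosin, and the 10 genes described here encode those filaments and the proteins that line the thin filament: the actins Acta2 and Actg2, the myosin chains Myh11, Myl6 and Myl9, and the thin filament proteins Tagln, Cnn1, Smtn, Tpm1 and Tpm2. They were chosen by name, with no measured value in the rule, but with earlier results of these data known. They are 10 of the 52636 genes in the count table. Bulk RNA sequencing was done on whole thoracic aortas of mice 12 weeks of age, to ask which transcripts change soon after TGF-β receptors are lost from SMCs. The WT group was 4 libraries from C57BL/6J mice that received no treatment. The KO group (Tgfbr1/2iSMCKO) was 2 libraries from mice that were Tgfbr1f/f and Tgfbr2f/f and carried Myh11-CreERT2 and mT/mG, that is, loxP sites in both receptor genes, an inducible Cre and a reporter of recombination. From 11 weeks of age these KO mice had daily intraperitoneal injections of 2 mg tamoxifen on 5 days.

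The WT mice had none of these alleles and no tamoxifen, so receptor loss, tamoxifen, the transgenes and any difference in background cannot be told apart. Cre was driven by the promoter of Myh11, which is itself one of the genes described. Whole aortas also hold endothelial cells, fibroblasts and SMCs that escaped recombination, and in such tissue fewer cells of a type and less RNA per cell cannot be told apart. The match of table columns to libraries was inferred from column codes, and the study describes as many mice in each group as there are libraries.

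Total counts per library were 19650983 to 28860598. Mitochondrial transcripts took 2.62% to 4.44% of counts in WT, 3.38% in KO-1 and 11.7% in KO-2. Whole-gene counts of the targeted receptors did not check the KO label: Tgfbr1 had a log2 fold change of 0.20 and Tgfbr2 of -0.09, with DESeq2 Benjamini-Hochberg adjusted p-values of 0.63 and 0.838. KO below therefore means the libraries labelled KO.

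In the contractile filament, tropomyosin lies along actin, myosin heavy chains pull on actin, and phosphorylation of the regulatory light chain by myosin light chain kinase starts the cycle. Serum response factor, with the coactivators myocardin and the myocardin-related factors, drives many of these genes through a promoter element called the CArG box. TGF-β is known as an inducer of contractile genes in cultured SMCs, and loss of their transcripts is the usual sign that SMCs have left the contractile state.

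The CArG box was looked for in RefSeq promoter windows (GRCm38.p6, 250 bases before to 50 after the annotated start), because it is the element these genes are best known for sharing. Windows were given for 7 of the 10 genes, namely Acta2, Cnn1, Myl6, Myl9, Smtn, Tpm1 and Tpm2. The box reads the same on both strands, so 1 search covered both. These 7 genes had 8 windows. When 1 G or C was allowed among the inner 6 bases, a match was found in 3 of the 7 genes. By window this was 3 of 8, against 9.98% of all 32851 windows. The strict form, with only A and T inside, was found in Myl9 and Myl6, that is in 2 of the 8 windows, against 1.63% of all windows. The matches are printed 5′ to 3′ on the gene's strand, 30 bases each, with the CArG box in capitals. They lie 161 and 99 bases before the start of Myl9, 50 before a start of Myl6, and 84 and 34 before the start of Acta2, counted to the first base of the box.
Myl9, upstream of the gene (chr2:156775293-156775322, plus strand): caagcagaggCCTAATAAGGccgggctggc
Myl9, upstream of the gene (chr2:156775355-156775384, plus strand): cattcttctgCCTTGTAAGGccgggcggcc
Myl6, in an exon of another transcript in GENCODE M21 (chr10:128493040-128493069, minus strand): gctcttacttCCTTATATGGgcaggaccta
Acta2, in an exon of another transcript (chr19:34255438-34255467, minus strand): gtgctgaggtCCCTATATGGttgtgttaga
Acta2, in an exon of another transcript (chr19:34255388-34255417, minus strand): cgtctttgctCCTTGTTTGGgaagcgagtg
These are matches of letters in a short window and not shown binding sites, and their use in these aortas was not measured. As a description, the 3 genes with a match ranked 1, 3 and 5 by level among the 10 genes in WT aorta. The 4 genes whose window held none ranked 6, 7, 8 and 10. This split depended on the gene length used for scaling. With the longest transcript in place of all exons, Tpm2, without a match, ranked 5 and Myl6, with one, ranked 6. Tagln, Myh11 and Actg2 had no window.

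The levels of the genes in WT aorta spanned a wide range. On a scale per length (TPM, counts over the summed exon length, scaled so that all genes of a library sum to 1000000), Acta2, the SMC α-actin, was at 22288, 25595, 28884 and 25352 TPM in the 4 WT libraries, a mean of 25529.6 ± 2696 (SD, n = 4), and ranked 2 among all genes of the tissue. Tagln, an actin-binding protein also called SM22α, followed at 11093 ± 713.5 TPM (SD, n = 4). Myl9, the regulatory light chain, was at 8488 ± 2917 TPM (SD, n = 4), and its range overlapped with that of Tagln. Below these came Myh11, the smooth muscle myosin heavy chain, at 4796 ± 743.4 TPM (SD, n = 4).

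The middle of the order was held by Myl6, the essential light chain, at 2457 ± 247.4 TPM, the tropomyosin Tpm2 at 2078 ± 273.4 TPM and calponin (Cnn1) at 1888 ± 115.9 TPM (SD, n = 4 each). The ranges of Myl6 and Tpm2 overlapped, and so did those of Tpm2 and Cnn1. Smoothelin (Smtn), an actin-binding protein of contractile SMCs, was at 1399 ± 95.2 TPM, below Cnn1 in all 4 libraries. The γ-actin of visceral smooth muscle, Actg2, was at 662.9 ± 100.6 TPM, and Tpm1 was lowest at 469 ± 58.8 TPM (SD, n = 4 each), with ranges that overlapped. Acta2 was 54.4 times Tpm1 in TPM, a ratio that depends on the summed exon lengths used, 2196 bases for Acta2 and 6485 for Tpm1. With the length of the longest transcript in place of all exons, Tpm2 moved above Myl6 and Tpm1 above Actg2, which are neighbours in the order.

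**Figure D1:**
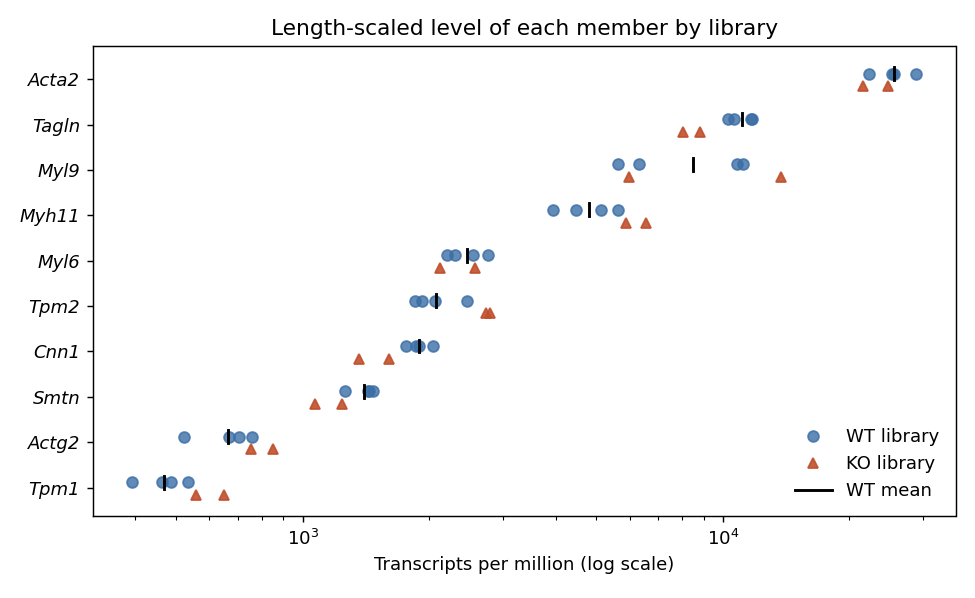
Level of each gene in TPM on a log scale; circles are the 4 WT libraries, triangles the 2 KO libraries and vertical black ticks the WT means. Acta2 stood alone at the top at 22288 to 28884 TPM in WT, and the circles of Myl9 were spread widest on this log scale, from 5644 to 11160.5 TPM.

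Together the 10 genes took 4.53%, 4.50%, 4.96% and 4.46% of all counts in the WT libraries, 4.68% in KO-1 and 4.77% in KO-2. The KO libraries lay within the WT range. Intervals for each share (95%, Wilson) were at most 0.00942 percentage points to either side and cover counting error only. Without mitochondrial transcripts the shares were 4.58% to 5.19% in WT, 4.84% in KO-1 and 5.4% in KO-2, which was then above all WT libraries.

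Next, KO was compared with WT for each gene in a DESeq2 fit across all genes. None of the 10 genes passed a Benjamini-Hochberg adjusted p-value under 0.05, while 10.4% of the 17070 genes tested did, and 5.64% of those tested passed and also differed by more than 2-fold. All 10 had passed the filter on low counts. The smallest adjusted p-value was 0.0977, that of Tagln. In 6 genes the unadjusted p-value was under 0.05: Myh11, Tpm1 and Tpm2 were higher in KO (11.9% of all tested genes were higher at this p-value) and Tagln, Cnn1 and Smtn were lower (10.3% of all). edgeR's quasi-likelihood test also called none of the 10 and gave 5 with an unadjusted p-value under 0.05. In counts divided by DESeq2 size factors, the groups did not overlap in 3 genes with KO higher, against 17.9% of all tested genes. These were Actg2, Myh11 and Tpm1. They also did not overlap in 3 genes with KO lower, Tagln, Cnn1 and Smtn, against 16.4% of all. In TPM the groups of Actg2 did overlap.

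An absent call does not show that groups are alike, so each gene was also tested for a difference smaller than 2-fold (DESeq2 equivalence test, Benjamini-Hochberg adjusted over all genes). All 10 genes passed, the largest adjusted p-value being 0.00531 for Myl9. Of all genes given an adjusted p-value in this test 67.4% passed, and 79.8% of the 704 genes whose normalised counts averaged 5000 or more. All 10 genes exceed this lower limit, Actg2 with a WT mean of 7283 and the others with 21513 to 397134. The set of 704 is therefore not matched to their levels. With a limit of 1.5-fold, Acta2 (DESeq2 adjusted p = 0.0301) and Myl6 (0.0238) passed, against 28.8% of all genes. The 95% intervals of all 10 genes lay within 2-fold, and their widest bound was 1.71-fold. The median log2 fold change of the 10 genes was 0.01, as was that of all tested genes.

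**Figure D2:**
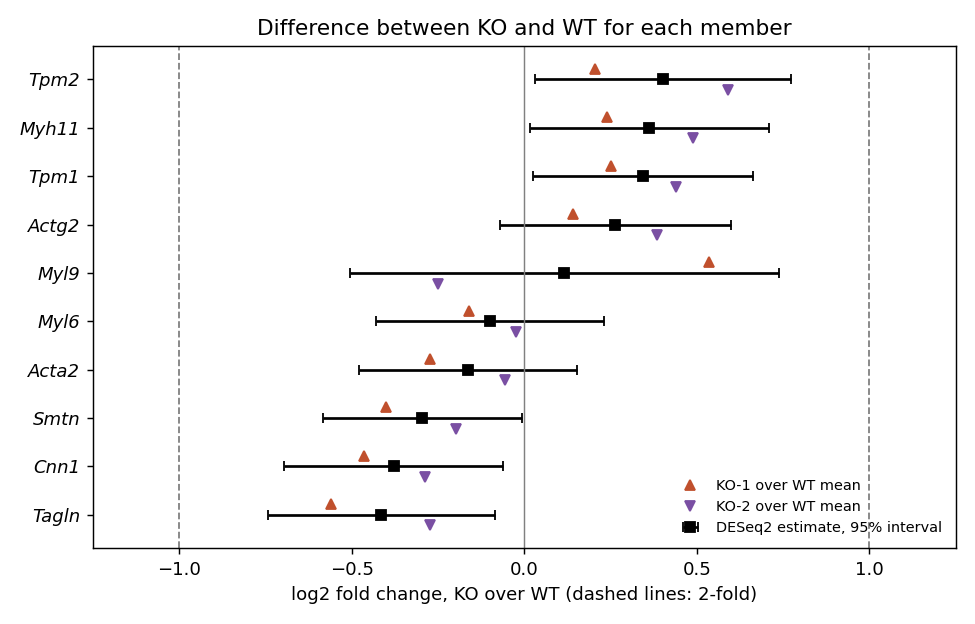
Estimated log2 fold change of KO over WT for each gene (squares, with 95% intervals from DESeq2), with each KO library over the WT mean as triangles; dashed lines mark 2-fold. All intervals stay between the dashed lines, and the KO-1 and KO-2 triangles lie on the same side of 0 in 9 of 10 genes, Myl9 being the exception.

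Neither actin passed the test for a difference between KO and WT. Acta2 (ENSMUSG00000035783.9, chromosome 19, 34241090 to 34255590 in GRCm38) had normalised counts (counts divided by DESeq2 size factors) of 380281, 390223, 445616 and 372417 in the WT libraries, from WT-1 to WT-4, while KO-1 had 328092 and KO-2 had 381467. KO-1 was the lowest of the 6 libraries and KO-2 lay within the WT range. Its log2 fold change was -0.16 ± 0.16 (SE, DESeq2 adjusted p = 0.616).

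Actg2 (ENSMUSG00000059430.14, chromosome 6, 83512905 to 83536265) was at 6324, 7205, 7714 and 7888 normalised counts in WT and at 8005 and 9483 in KO. Both KO libraries were above all WT libraries on this scale, KO-1 by little. In TPM the groups overlapped, with KO-2 at 755.5 and WT-4 at 757.3. The log2 fold change was 0.26 ± 0.17 (SE, DESeq2 adjusted p = 0.383), so this gene, like Acta2, missed the threshold.

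Within a library, where scaling plays no part, the ratio of Acta2 to Actg2 counts was 60.1, 54.2, 57.8 and 47.2 in WT and 41.0 and 40.2 in KO. Both KO ratios were below the lowest WT ratio, and the mean KO ratio was 0.744 times that of WT.

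None of the myosin chains was called. Myh11 (ENSMUSG00000018830.10, chromosome 16, 14194535 to 14291372), the heavy chain that defines mature SMCs, had normalised counts of 232343, 236582, 301065 and 260538 in WT and 302515 and 359715 in KO. Both KO libraries exceeded all WT libraries, but KO-1 was almost level with WT-3. In DESeq2 the log2 fold change was 0.36 ± 0.18 (SE) and an unadjusted p-value of 0.0406 in DESeq2, which did not hold over all genes (adjusted p = 0.199).

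Myl6 (ENSMUSG00000090841.2, chromosome 10, 128490860 to 128494145) was at 57173, 56304, 61848 and 47122 normalised counts in WT and at 49498 and 54409 in KO. The KO libraries fell within the WT range. Its log2 fold change was -0.10 ± 0.17 (SE, DESeq2 adjusted p = 0.805). Of the 50-base stretches of Myl6 transcripts, 8.38% also occur in transcripts of other genes, mostly the pseudogene Gm5526, so a small part of its reads could be split.

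Myl9 (ENSMUSG00000067818.6, chromosome 2, 156775420 to 156781658), whose product is phosphorylated to start contraction, varied more than any other gene of the 10. WT libraries had normalised counts of 100762, 45537, 51478 and 84266, KO-1 had 96755 and KO-2 had 56132. WT-1, WT-4 and KO-1 were high and WT-2, WT-3 and KO-2 low, so that the spread ran across both groups. The coefficient of variation in WT was 37.4%, against 3.23% to 12.6% in the other 9 genes and a median of 9.71% over the 704 genes at a mean of 5000 or more, of which 14 varied more. KO over WT, the log2 fold change was 0.12 ± 0.32 (SE, DESeq2 adjusted p = 0.885), and no 50-base stretch of Myl9 was shared with another gene.

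Ratios of Myl9 to its partners carried the same split. The count ratio of Myl9 to Myl6, the light chains that sit on the same heavy chain, was 1.76, 0.809, 0.832 and 1.79 in WT and 1.95 and 1.03 in KO. The groups overlapped. The ratio of Myh11 to Myl9 counts ran from 2.31 to 5.85 in WT and was 3.13 and 6.41 in KO.

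The genes whose normalised counts across the 6 libraries were most like those of Myl9, chosen after its values were seen and given as a description, were Cdc37l1 (Pearson r = 0.948 on the log2 scale, n = 6 libraries) and Txndc5 (r = 0.907), out of 4552 genes searched. Txndc5, a protein disulphide isomerase of the endoplasmic reticulum, was at 7396, 2137, 2654 and 7787 normalised counts in WT and 6567 and 1579 in KO. It was high in the same 3 libraries as Myl9.

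Among the thin filament proteins, the fold changes of Tagln, Cnn1 and Smtn were negative and those of the tropomyosins positive, and none passed the adjusted threshold. Tagln (ENSMUSG00000032085.5, chromosome 9, 45929619 to 45936058) had normalised counts of 164727, 161171, 163668 and 137127 in WT and 105965 and 129235 in KO. Both KO libraries were below all WT libraries, and WT-4 stood apart from the other WT libraries. The KO mean was 0.751 times the WT mean, and the log2 fold change was -0.41 ± 0.17 (SE, DESeq2 unadjusted p = 0.0135, adjusted p = 0.0977). Exons of Gm48529 on the opposite strand cover 62.4% of the exon bases of Tagln, and whether counting used strand is not given in the sources used here. Gm48529 was assigned 836 to 2451 counts per library, while Tagln had 105141 to 179470.

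Cnn1 (ENSMUSG00000001349.5, chromosome 9, 22099216 to 22109630), which inhibits the ATPase of myosin on actin, was at 39518, 38753, 36354 and 32219 normalised counts in WT and 26538 and 29969 in KO. Again both KO libraries were below the lowest WT library, WT-4. The log2 fold change was -0.38 ± 0.16 (SE, DESeq2 unadjusted p = 0.0196, adjusted p = 0.124).

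Smtn (ENSMUSG00000020439.17, chromosome 11, 3517523 to 3540612) had the steadiest WT values, 42873, 43396, 45363 and 42069 normalised counts, and 32890 and 37886 in KO. The groups did not overlap, with KO-1 lowest. In DESeq2 the log2 fold change was -0.30 ± 0.15 (SE, DESeq2 unadjusted p = 0.045, adjusted p = 0.212). Of its 50-base stretches 9.46% occur in Gm11946, a transcript on the opposite strand that was assigned 49 to 87 counts per library.

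Tpm1 (ENSMUSG00000032366.15, chromosome 9, 67022590 to 67049406) was at 19793, 20858, 24346 and 21054 normalised counts in WT and 25528 and 29071 in KO. Both KO libraries were above all WT libraries, KO-1 closely above WT-3. Its log2 fold change was 0.34 ± 0.16 (SE, DESeq2 unadjusted p = 0.0343, adjusted p = 0.178).

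Tpm2 (ENSMUSG00000028464.16, chromosome 4, 43514711 to 43523765) had normalised counts of 41820, 41825, 50374 and 37509 in WT and 49156 and 64178 in KO. WT-3 was above KO-1, so the groups overlapped on this scale, while in TPM both KO libraries (2794 and 2737) were above the highest WT library (2465). KO over WT, the log2 fold change was 0.40 ± 0.19 (SE), the largest positive estimate of the 10 (DESeq2 unadjusted p = 0.0332, adjusted p = 0.174). Tpm2 lies 3.83 Mb from Tgfbr1 on chromosome 4, and Tpm1, Tagln and Cnn1 lie 49.0, 70.1 and 94.0 Mb from Tgfbr2 on chromosome 9. Whether sequence that travelled with the floxed alleles plays a part was not tested.

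**Figure D3:**
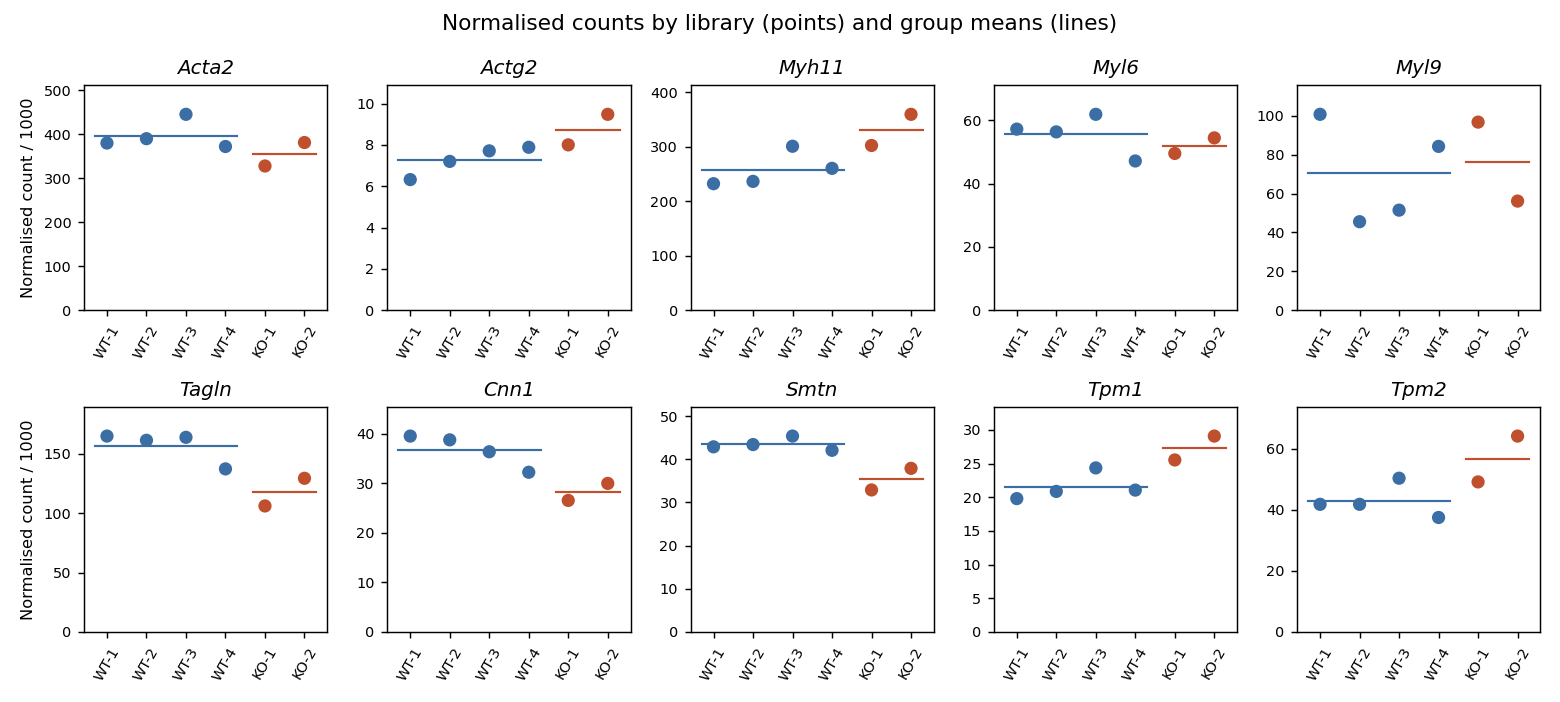
Normalised counts, divided by 1000, for each gene and library (points) with group means (lines), WT in blue and KO in red, each axis starting at 0. KO-2 was above KO-1 in 9 of the 10 genes, and the points of Myl9 split across both groups.

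Ratios between genes of one library need no scaling between libraries. Ratios of like thin filament proteins overlapped between groups: Tpm2 to Tpm1 counts was 1.78 to 2.11 in WT and 1.93 and 2.21 in KO, and Cnn1 to Tagln was 0.222 to 0.240 in WT and 0.250 and 0.232 in KO. In both ratios 1 KO library lay within the WT range and the other just above it. Further ratios set a gene with a positive fold change over one with a negative fold change. They were formed after values were seen and are therefore a description, and in them the groups lay apart. Myh11 to Tagln counts was 1.41, 1.47, 1.84 and 1.90 in WT and 2.85 and 2.78 in KO, 1.72 times higher in KO. Tpm1 to Cnn1 was 0.501, 0.538, 0.670 and 0.653 in WT and 0.962 and 0.970 in KO. Myh11 to Acta2 was 0.611, 0.606, 0.676 and 0.7 in WT and 0.922 and 0.943 in KO.

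**Figure D4:**
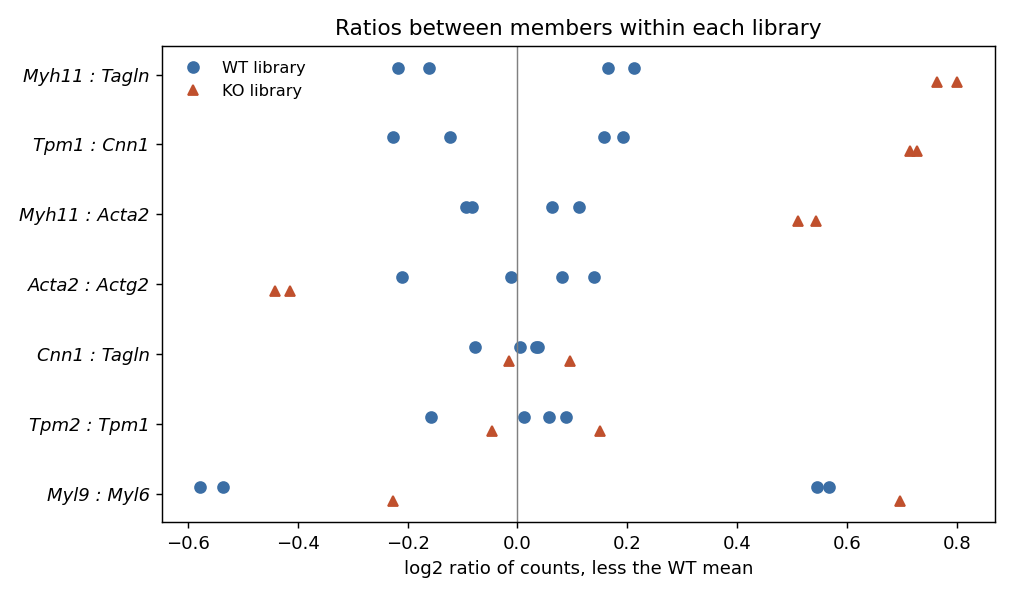
Within-library count ratios on the log2 scale, less the WT mean, with WT libraries as circles and KO libraries as triangles; a value of 0 is the WT mean. The upper 3 ratios were formed after values were seen and lie above WT in both KO libraries, Acta2 to Actg2 lies below, and the lower 3 overlap with WT.

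The result depended on single libraries for some genes. Without WT-4, Tagln (log2 fold change -0.47, DESeq2 adjusted p = 0.0397) and Cnn1 (-0.43, adjusted p = 0.0452) passed the threshold. Without KO-2, Tagln passed (-0.55, DESeq2 adjusted p = 0.0257), and without KO-1, Tpm2 passed (0.58, adjusted p = 0.0288). The equivalence test was no longer passed by Myl9 without WT-1, WT-4, KO-1 or KO-2 (DESeq2 adjusted p between 0.0526 and 0.112) or by Tpm2 without KO-1.

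The mean log2 pattern of the 10 genes over the 6 libraries was most like that of Tshz1 (Pearson r = 0.993, n = 6 libraries, 4543 genes searched), followed by Rock1 (0.983) and Psmd1 (0.971). The 10 genes did not move together, so this mean is not a pattern that each of them followed. For pairs among them, r ran from -0.72 (Actg2 and Cnn1) to 0.983 (Myh11 and Tpm1). Rock1, a kinase that inhibits myosin light chain phosphatase, was at 21522, 18548, 24167 and 18783 normalised counts in WT and 18372 and 25873 in KO. Like the 10 genes summed, it was high in WT-3 and KO-2.

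The other genes of the contractile apparatus were read from lists of other actins, other myosin chains, other thin filament proteins, light chain kinases, phosphatases and their regulators, and transcription factors. Of 34 genes, 33 had a DESeq2 adjusted p-value and Smtnl1 was at 0 counts in every library. By the adjusted p-value 3 rose and 4 fell in KO, of which 2 and 1 changed more than 2-fold. The equivalence test within 2-fold was passed by 27, and it gave Acta1, Myh14 and Smtnl1 no adjusted p-value. Over all tested genes, 10.4% passed the adjusted p-value and 5.64% did so with more than 2-fold. Of all genes given an adjusted p-value in the equivalence test, 67.4% passed it. The median log2 fold change of the lists was 0.15, against 0.01 over all tested genes.

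Mylk4, a light chain kinase, fell from 17347 ± 2380 normalised counts (SD, n = 4) in WT to 2413 ± 495.1 (SD, n = 2) in KO (log2 fold change -2.85, standard error 0.20, DESeq2 adjusted p = 3.86e-43). Mylk, the main light chain kinase of SMCs, was at 59068 to 69165 in WT and 67277 and 87369 in KO (DESeq2 adjusted p = 0.308). Ppp1r14a, an inhibitor of myosin phosphatase, fell (log2 fold change -0.60, standard error 0.21, DESeq2 adjusted p = 0.0463). The relatives of the genes described that fell were Myh10, a nonmuscle myosin heavy chain (-0.68, standard error 0.16, DESeq2 adjusted p = 0.000967), and Tagln2, a transgelin of nonmuscle cells (-0.69, standard error 0.20, adjusted p = 0.0102).

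Myh10 had normalised counts of 21874, 20596, 22955 and 24421 in WT and 15388 and 12610 in KO. Tagln2 was at 13049, 13319, 11582 and 10215 in WT and 6114 and 8787 in KO. In both genes the KO libraries were below all WT libraries, as in Tagln.

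Tmod1, which caps the slow-growing end of thin filaments, rose (log2 fold change 0.59, standard error 0.17, DESeq2 adjusted p = 0.00868). The remaining calls were Actc1, the cardiac actin, at 74.5 to 223.4 normalised counts in WT, 5951 in KO-1 and 270.4 in KO-2, and Myh14, at 0 to 5.39 in WT and 56.1 and 11.1 in KO. Actc1 was above all WT libraries in both KO libraries, and far more so in KO-1. Of 12 cardiac markers, Actc1 among them, 7 rose more than 2-fold by the same test, against 5.64% of all tested genes in either direction. The summed normalised counts of the 12 were 3256 to 4600 in WT, 30470.4 in KO-1 and 5110 in KO-2, with Myl2 at 0 in WT.

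Caldesmon (Cald1) was at 41566 to 76969 normalised counts in WT and 64561 and 84586 in KO, and leiomodin (Lmod1) at 33929 to 45891 in WT and 36799 and 54298 in KO. Neither was called (DESeq2 adjusted p = 0.228 and 0.7). The nonmuscle actins Actb and Actg1 had log2 fold changes of 0.20 and -0.25, and the tropomyosins Tpm3 and Tpm4 of 0.38 and 0.35, none of them called (DESeq2 adjusted p = 0.137 to 0.724). Of the transcription factors that drive these genes, Srf (-0.19), Myocd (0.19), Mrtfa (-0.57) and Mrtfb (-0.09) were not called either (DESeq2 adjusted p = 0.199 to 0.901).

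Markers of several other cell types were called higher in KO, and their values stand here beside those of the 10 genes. Over all 17070 genes tested, 974 were called higher. Summed normalised counts of 8 fibroblast markers were 116070 to 127903 in WT, 146126 in KO-1 and 169218 in KO-2, and 2 of the 8 passed the DESeq2 adjusted p-value, both higher. Of 7 endothelial markers 4 rose (11465 to 20537 in WT, 29661 and 29094 in KO), as did 6 of 7 macrophage markers (8288 to 10083 in WT, 14235 and 16456 in KO). Mesothelial markers, 5 of 5, rose from 228.1 to 432.4 in WT to 851.4 and 2326 in KO. White fat markers rose in 3 of 6 (2547 to 4894 in WT, 5392 and 37810.3 in KO) and brown fat markers in 4 of 6 (1101 to 1453 in WT, 3867 and 13783 in KO). Of 5 red blood cell markers 4 were tested, and all 4 rose (859.3 to 5990 in WT, 11076 and 61684 in KO). Of 10 skeletal muscle markers 7 were tested and none was called (208.8 to 293.3 in WT, 726.2 and 253.2 in KO, with Myh1 and Myh2 at 0 in WT). The part of these cell types in the values of the 10 genes was not tested.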

How the data were processed

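Reads were trimmed (Trim Galore) and aligned to GRCm38 (HISAT2) by the authors, and StringTie quantified the gene models of GENCODE M15. The deposited table gives unscaled estimated counts, which were whole numbers and were used as they stand. How coverage became counts is not given in the sources used here. All 52636 genes were fitted with DESeq2 1.42.0 in R 4.3.3 (Wald test, group as the only term, Benjamini-Hochberg adjustment at 0.05, and with it 2-fold, as in the study). Normalised counts are counts over DESeq2 size factors. Equivalence used the same fit with an absolute log2 fold change below 1. TPM used the union of exons in GENCODE M21 (GRCm38), which held 52489 of the gene identifiers. edgeR 4.0.16 was an alternative. Further alternatives were other scalings and filters, each library left out and the replicate number as a block. All 10 genes are named, with called genes and nearest relatives from 5 lists, and the genes most like their pattern among those averaging 1000 normalised counts or more. The genes, lists and tests were chosen with earlier results of these data known. Other genes were picked after seeing values. Each of the 10 genes had at least 5757 counts per library.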

Additional observations from a re-analysis of the deposited data

Results flagged for a closer look

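In 29 sets of 4 WT values (normalised counts of the 10 genes, their ratios, marker sums and shares of counts), the gap of the highest or lowest library to its neighbour was compared with Dixon's 95% critical value, and 2 sets exceeded it where chance gives 1.45. Tagln was lowest in WT-4, at 137127 normalised counts, with a gap of 0.871 of the WT range. Tagln passed the threshold in KO without this library and also without KO-2. The share of all counts held by the 10 genes was highest in WT-3, at 4.96%, with a gap of 0.863.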

How the results depend on the processing

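Under 14 alternatives the direction of 8 of the 10 genes was the same. DESeq2 without independent filtering and the test against 2-fold reuse the estimates of the reported fit. These 2 alternatives could therefore not change a direction. Myl6 turned from -0.10 to 0.0007137 on the log2 scale when totals without mitochondrial genes set the scale, and Myl9 turned to -0.05 without WT-2, -0.01 without WT-3 and -0.33 without KO-1, its values with a library left out running from -0.33 to 0.47. None of the 10 genes was called in the reported fit, against 1 (Tpm1, log2 fold change 0.44, DESeq2 adjusted p = 0.0491) scaled by totals without mitochondrial genes, and 0 to 2 when a library was left out. That scaling moved the median of all genes to 0.11 and the share of higher calls from 54.9% (974 higher, 801 lower) to 70.2% (1358 and 576). Over all genes 1775 were called, against 996 by edgeR, 931 by edgeR with no filter on low counts, 114 in a test against 2-fold and 1113 to 2439 with a library left out (1113 without KO-2). With the replicate number as a block 628 were called, none of the 10 genes passed, and Myh11 missed the equivalence test (DESeq2 adjusted p = 0.0503). In that fit WT-3 and WT-4 had no KO library of the same number and did not inform the difference. Its lower count of calls therefore also reflects fewer libraries compared. Whether same-numbered libraries were handled together is not given in the sources used here. Deviations of same-numbered libraries from their group means correlated at -0.087 and 0.014. With 2 KO libraries the deviations of KO-1 and KO-2 mirror each other, so these correlations cannot decide it. Within 2-fold passed 10 genes, 8 to 10 with a library left out and 2 at a limit of 1.5-fold. The order of WT levels kept 6 of 10 ranks with the longest transcript. The 2 KO libraries limit precision, with standard errors of 0.15 to 0.32 on the log2 scale, and a lone KO library was assumed to vary like WT.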
